A study of Mus musculus with 10 samples.

Results

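The respiratory chain and ATP synthase subunits encoded in the nucleus were examined in the abdominal aorta of KCASP1Tg mice and wild-type (WT) mice. Members were chosen by gene symbol alone. They are the probe sets of Ndufa, Ndufb, Ndufc, Ndufs, Ndufv, Sdha to Sdhd, Uqcr, Cox4i, Cox5, Cox6, Cox7, Cox8 and Atp5 genes, without the Ndufaf assembly factors and without the muscle and brown fat isoforms Cox7a1 and Cox8b. They comprised 167 probe sets of 80 genes, among 45037 probe sets and 18193 genes on the array. Only probe sets that reached a signal of 100 on 4 or more arrays were tested, which left 152 member probe sets of 77 genes. The accessory subunit Ndufb4 and the isoforms Cox4i2 and Cox7b2 were the 3 genes too dim to be tested.

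The respiratory chain is a row of protein complexes in the inner mitochondrial membrane. Complex I takes electrons from NADH and complex II takes them from succinate, complex III passes them to cytochrome c, and complex IV hands them to oxygen. The proton gradient built on the way drives ATP synthase, called complex V. The chain is especially abundant in heart muscle, skeletal muscle and brown fat, where brown adipocytes use the gradient to make heat through the uncoupling protein Ucp1.

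KCASP1Tg mice carry human caspase-1 under the keratin 14 promoter, which is active in keratinocytes, and they develop a chronic dermatitis. The WT mice were littermates on the C57BL/6 background, and the methods describe female mice. The labels list 4 WT and 6 KCASP1Tg samples at 16 weeks (4 months), each on a GeneChip Mouse Genome 430 2.0 array, from abdominal aorta that they call dechorionated. The labels name each sample as a mouse of its own, but the methods give fewer mice for the arrays than the 10 samples listed. The number of separate animals is therefore uncertain, and n below counts samples, called mice as in the labels. No other allele or agent is given for either group. The values are linear signal intensities of probe sets, scaled by the authors to the same mean on every array, and a value of a gene is that of its probe set with the highest mean signal. Levels of different probe sets are not comparable with each other, so only levels of 1 probe set between mice are compared. The number of arrays limits the precision.

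The tissue held more than vessel wall, and this differed between mice. All 10 smooth muscle markers were measured, with summed signals of 74927 to 93858 on 9 arrays and 35125 on KCASP1Tg 4. Adipocyte markers were bright on every array, with sums of 160789 to 194725 in WT and 136653 to 226553 in KCASP1Tg. The 12 brown adipocyte markers found on the array summed to 52663 to 157343 in WT and to 31498 to 123227 in KCASP1Tg. Heart muscle markers summed to 90051 on WT 4, 43777 on KCASP1Tg 1 and 25678 on KCASP1Tg 2, against 1423 to 4542 on the other 7 arrays. Skeletal muscle markers summed to 43716 on WT 1 and 38881 on KCASP1Tg 4, against 2413 to 8122 on the other 8. KCASP1Tg 4 also had the highest lymphocyte sum, 38586 against 458 to 2140 elsewhere, and the highest neutrophil sum, 69046. Neutrophil sums did not overlap between genotypes, at 813 to 1180 in WT and 8228 to 69046 in KCASP1Tg, and 3 of the 10 tested neutrophil markers were called higher in KCASP1Tg by limma. The part of these transcripts in the member signals was not tested. Liver markers were high on WT 1 (157535) and WT 3 (64224). In such bulk RNA, fewer cells of a type and less RNA per cell cannot be told apart.

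Before the values, 4 stretches upstream of member genes are shown, because they hold letters of factors known to act on nuclear genes of the respiratory chain and because their genes differed in how far they varied over the mice. Nuclear respiratory factor 1 (NRF1), the ETS factor GABP, the estrogen-related receptors (ERR) and YY1 are textbook regulators of such genes. RefSeq promoter windows (GRCm38.p6, 250 bases before to 50 after the start of a transcript) were matched by symbol for 65 of the 80 genes, giving 70 windows. Each sequence below is the 250 bases before the start, 5′ to 3′ on the strand of the gene. Capitals mark NRF1 letters (GCATGCGC) or ETS letters (CCGGAAG) on either strand that lie wholly before the start.
Sdhb (chr4:140961021-140961270, plus strand): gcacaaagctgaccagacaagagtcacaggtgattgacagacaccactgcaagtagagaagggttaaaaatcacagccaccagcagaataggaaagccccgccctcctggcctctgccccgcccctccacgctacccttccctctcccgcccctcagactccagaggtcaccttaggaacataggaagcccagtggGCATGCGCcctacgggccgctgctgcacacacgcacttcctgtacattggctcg
Uqcr11 (chr10:80406822-80407071, minus strand): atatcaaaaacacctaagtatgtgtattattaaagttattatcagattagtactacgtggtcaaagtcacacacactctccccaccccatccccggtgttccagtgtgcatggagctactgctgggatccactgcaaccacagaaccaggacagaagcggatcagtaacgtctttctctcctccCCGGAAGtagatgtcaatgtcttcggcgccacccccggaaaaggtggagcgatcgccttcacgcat
Atp5g2 (chr15:102671048-102671297, minus strand): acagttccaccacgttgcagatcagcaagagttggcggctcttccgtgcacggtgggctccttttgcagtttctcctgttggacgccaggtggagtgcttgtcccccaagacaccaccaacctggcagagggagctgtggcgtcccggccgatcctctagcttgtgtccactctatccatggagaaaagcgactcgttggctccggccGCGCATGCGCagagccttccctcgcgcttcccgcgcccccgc
Cox6a1 (chr5:115348959-115349208, minus strand): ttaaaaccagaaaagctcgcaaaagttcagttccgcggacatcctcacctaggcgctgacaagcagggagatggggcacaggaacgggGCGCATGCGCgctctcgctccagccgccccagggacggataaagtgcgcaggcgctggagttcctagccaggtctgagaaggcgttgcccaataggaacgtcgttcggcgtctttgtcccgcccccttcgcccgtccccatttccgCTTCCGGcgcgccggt

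In Sdhb the NRF1 letters began 54 bases before the start. In Atp5g2 and Cox6a1 the NRF1 letters and their reverse complement overlapped, beginning 42 and 162 bases before it. The ETS letters began 66 bases before the start in Uqcr11 and, on the reverse strand, 16 bases before it in Cox6a1. Uqcr11 also had NRF1 letters that began 4 bases before the start and ran past it. Sdhb also had ETS letters that began 6 bases after the start. Neither of these matches is in capitals above. NRF1 letters were found in 12.9% of the member windows, against 2.71% of all 32851 windows and 4.88% of the windows of genes tested on the array. ETS letters were found in 24.3% against 8.86% and 16.0%. YY1 letters (AAGATGGCG) were in 8.57% against 1.40% and 2.78%, and ERR letters (TCAAGGTCA) in 2.86%, the windows of Atp5g3 and Sdhd, against 0.423% and 0.298%. The TATA box letters TATAAA, searched for comparison on both strands as well, were in 11.4% of the member windows, against 13.6% of all windows and 7.65% of the windows of tested genes. At least 1 of the NRF1, ETS, ERR and YY1 letters was in 27 of the 70 member windows (38.6%), against 12.5% of all windows and 22.1% of those of tested genes. A match is a description of the letters and neither a binding site nor a cause, and a window without them says nothing about the factor.

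No member passed the test between KCASP1Tg and WT. By limma with Benjamini-Hochberg adjustment over all 26242 tested probe sets, 0 of the 152 member probe sets passed as higher in KCASP1Tg and 0 as lower. Over all tested probe sets 0.0686% were called higher and 0% lower. Without adjustment 4 member probe sets had a p under 0.05, or 2.63%, below the 7.94% of all tested probe sets, and the exact Mann-Whitney test with the same adjustment called 0 members. Every KCASP1Tg array lay above every WT array for 0 member probe sets and below for 1, against 1.98% and 0.949% of all tested probe sets. The median difference of the 77 tested genes, KCASP1Tg minus WT, was -0.01 on the log2 scale, beside 0.00 for all tested probe sets, and 32 genes had a positive and 45 a negative difference. The 95% intervals of the genes reached a median of 0.52 to either side of the difference. These intervals are not adjusted, so a call needs a larger change than they show, and they do not show that the genotypes were alike.

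**Figure D1:**
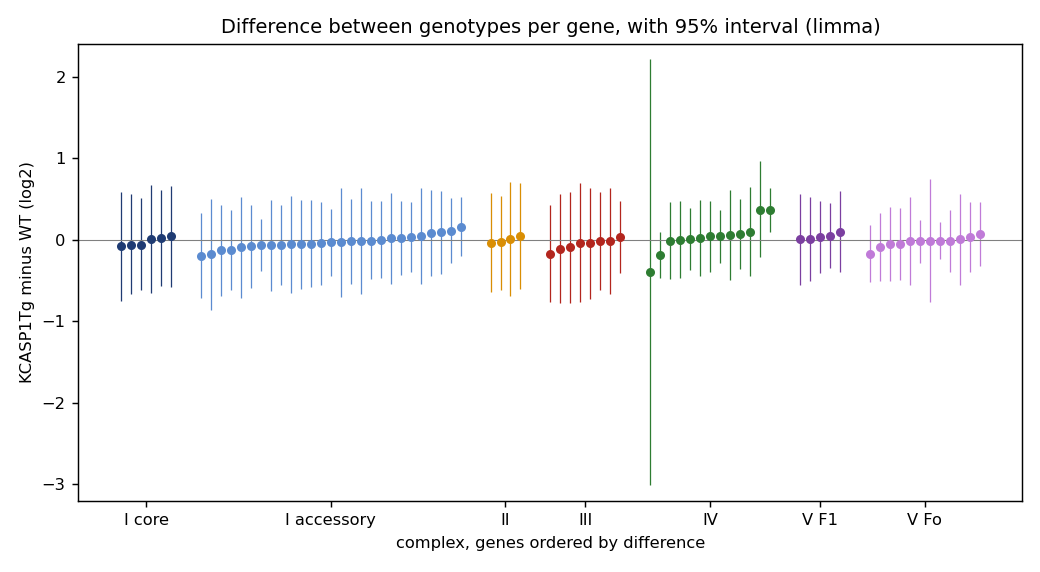
Difference between genotypes (KCASP1Tg minus WT, log2) for 75 tested genes of complexes I to V, with 95% intervals from limma, ordered by size within each complex. The vertical lines cross 0 for all but Cox7c, at 0.37 the highest point of complex IV together with Cox6b2, and the very long line of complex IV is Cox6a2.

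Complex I, the NADH dehydrogenase, was the largest set. Its core subunits include those that carry the flavin and the iron-sulfur clusters along which electrons travel. Of the core subunits 6 were tested, with differences of -0.08 to 0.04 and a median of -0.02. Ndufs1, the largest iron-sulfur subunit, had signals of 6791, 5309, 7532 and 13189 on WT 1 to WT 4. On KCASP1Tg 1 to KCASP1Tg 6 it had 7196, 10221, 9523, 4390, 8960 and 5527. The groups overlapped fully, with the highest mouse in WT and the lowest in KCASP1Tg, and the difference was -0.08 ± 0.30 (SE, n = 4 and 6, limma adjusted p = 0.991). Ndufs7, another iron-sulfur subunit, had the largest positive difference of the core, 0.04 ± 0.28, and was the only core gene highest on KCASP1Tg 2 (12824) rather than WT 4 (12580). The flavin subunit Ndufv1 averaged 12988 ± 5303 (SD, n = 4) in WT and 12974 ± 4128 (SD, n = 6) in KCASP1Tg.

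The accessory subunits surround the core and serve its assembly and stability. Of the 27 tested, 8 had a positive and 19 a negative difference, with a median of -0.03 and a range of -0.20 (Ndufs5) to 0.16 (Ndufb1). Ndufs5 had signals of 7834, 6636, 7881 and 14007 in WT and of 7332, 10053, 8765, 5162, 8719 and 6591 in KCASP1Tg (adjusted p = 0.925, limma). Ndufb1 was dim, at 205 to 339 in WT and 226 to 321 in KCASP1Tg, and its highest array was WT 2.

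Ndufs4, an accessory subunit required for full assembly of complex I, held the single member probe set whose groups did not overlap. This probe set, the dimmest of the 3 tested for the gene, gave 398, 407, 438 and 485 in WT and 309, 348, 192, 301, 303 and 359 in KCASP1Tg. All KCASP1Tg values were below all WT values, with a difference of -0.54 ± 0.17 (limma p = 0.00972, adjusted p = 0.440, exact Mann-Whitney p = 0.00952). The brightest Ndufs4 probe set gave 3884, 2887, 3962 and 7651 in WT and 3584, 5682, 4594, 2357, 4697 and 2895 in KCASP1Tg. There the groups overlapped and the difference was -0.18 ± 0.31, and the third tested probe set gave -0.19 ± 0.30 with overlap as well. The 3 probe sets of the gene thus did not show the same pattern over the mice.

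Complex II, succinate dehydrogenase, is also an enzyme of the citric acid cycle and has no subunit made in the mitochondrion. Its 4 genes had differences of -0.04 (Sdhc) to 0.05 (Sdhb). Sdhb, the iron-sulfur subunit whose upstream stretch is printed above, had 16428, 12936, 16219 and 28681 in WT. In KCASP1Tg it had 18386, 26232, 23786, 11074, 22652 and 13122. The flavin subunit Sdha followed the same mice, with a WT mean of 17251 ± 6458 (SD, n = 4) and a KCASP1Tg mean of 16637 ± 4298 (SD, n = 6). The limma adjusted p-values of the 4 genes were 0.995 or higher.

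Complex III, the cytochrome bc1 complex, had 8 tested genes with a median difference of -0.04, from -0.17 (Uqcrh) to 0.03 (Uqcrb). Uqcrc1, a core protein, had 13842, 10342, 12103 and 24437 in WT and 13024, 20635, 20783, 7823, 16765 and 10276 in KCASP1Tg. WT 4 was highest and KCASP1Tg 4 lowest for every one of the 8 genes. Uqcrh, the hinge protein, averaged 20273 ± 6030 (SD, n = 4) in WT and 18272 ± 5285 (SD, n = 6) in KCASP1Tg (adjusted p = 0.954, limma). The Rieske iron-sulfur protein Uqcrfs1 differed by -0.04 ± 0.31 and the core protein Uqcrc2 by -0.02 ± 0.29.

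Complex IV, cytochrome c oxidase, had 13 tested genes, 9 with a positive and 4 with a negative difference, and a median of 0.04. Cox4i1, the ubiquitous form of subunit 4, had 24804, 21976, 24299 and 34535 in WT and 27265, 33109, 33313, 18730, 31759 and 23461 in KCASP1Tg. Cox5a differed by 0.10 ± 0.25, Cox7a2 by 0.01 ± 0.17 and Ndufa4, a protein named for complex I that belongs to complex IV, by 0.06 ± 0.25. Cox7c, a small subunit, had the smallest unadjusted p of the complex (0.0116). Its probe set was dim, with 308, 293, 289 and 282 in WT and 372, 387, 423, 414, 411 and 289 in KCASP1Tg. The KCASP1Tg arrays were higher apart from KCASP1Tg 6, which lay among the WT arrays, and the difference of 0.37 ± 0.12 did not pass (limma adjusted p = 0.453). The other Cox7c probe set stayed under 100 on all arrays and was not tested.

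Isoforms of complex IV that are typical of certain tissues were compared with their partners. Cox6a1, the form found in most tissues, had 35098, 31585, 32697 and 43407 in WT and 36127, 40085, 41284, 27346, 40968 and 35669 in KCASP1Tg. Cox6a2, the form of heart and skeletal muscle, had 941, 128, 105 and 3783 in WT and 1807, 1200, 132, 525, 134 and 98 in KCASP1Tg. Cox6a2 was thus high on WT 4, KCASP1Tg 1 and KCASP1Tg 2, the 3 arrays with heart muscle transcripts, and next highest on WT 1 and KCASP1Tg 4, the 2 with skeletal muscle transcripts. On the other 5 arrays it lay between 98 and 134. Its range over the mice was 38.6-fold, the widest of the 77 genes, against 1.59-fold for Cox6a1, and its genotype difference was -0.40 ± 1.18 (limma adjusted p = 0.985). That difference ran from -1.12 to 0.60 when single arrays were left out. The part of the muscle transcripts in the Cox6a2 signal was not tested.

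**Figure D2:**
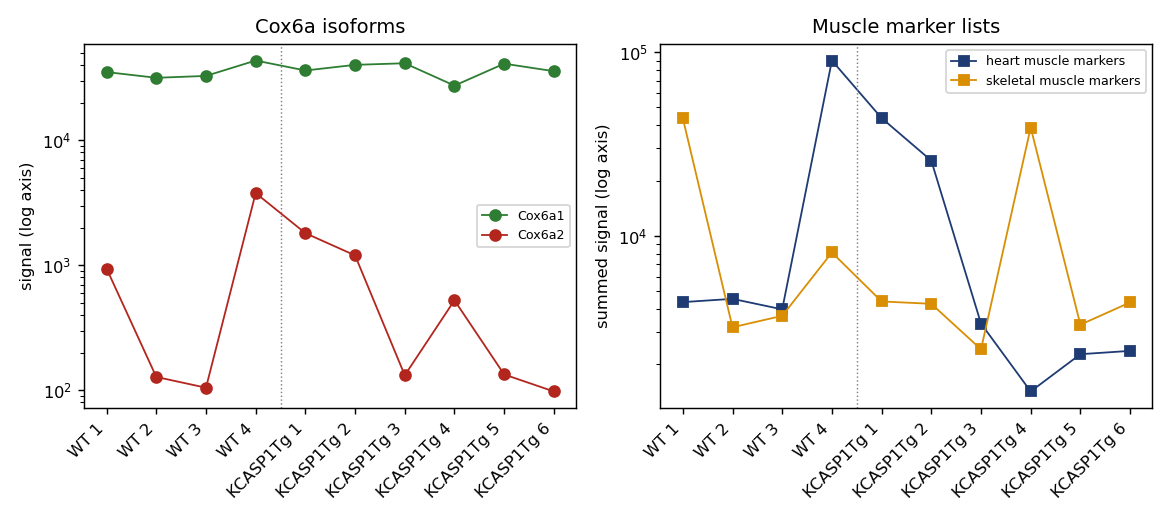
Left, signal of Cox6a1 and Cox6a2 on each array (log axis). Right, summed signal of 15 heart muscle markers and 12 skeletal muscle markers on the same arrays (log axis). Cox6a2 was between 98 and 134 on the 5 arrays where both marker sums were low.

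The testis isoform Cox6b2 was dim, at 167 to 311 in WT and 184 to 384 in KCASP1Tg, and differed by 0.37 ± 0.26 (limma adjusted p = 0.802). Cox8c, another testis isoform, had 437 to 654 in WT and 416 to 533 in KCASP1Tg. Its other tested probe set had the opposite sign (0.59 against -0.19), as a dim Cox8a probe set had (0.60 ± 0.23, adjusted p = 0.526) against -0.01 and 0.01 for the bright ones. Ndufab1, the acyl carrier protein counted with complex I, was the other gene whose probe sets differed in sign by over 0.5, from -0.38 to 0.42 among 5. In 15 genes the tested probe sets differed by over 10-fold in mean signal, and the brightest was used here.

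A pair of members are not subunits of the standard complexes. Cox7a2l, which helps complexes III and IV to associate, had 4814, 5014, 4726 and 6425 in WT and 5282, 6597, 6880, 5399, 5786 and 4905 in KCASP1Tg, and differed by 0.15 ± 0.14. Ndufa4l2, known as a gene induced by low oxygen, had 245, 270, 210 and 214 in WT and 156, 191, 172, 134, 261 and 168 in KCASP1Tg. Of its KCASP1Tg arrays 5 lay below all WT arrays and KCASP1Tg 5 lay among them. The difference of -0.41 ± 0.18 did not pass (limma adjusted p = 0.596).

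ATP synthase consists of the catalytic head F1 and the membrane part and stalk Fo. The 5 F1 genes had differences of 0.01 to 0.10 and the 12 Fo genes of -0.17 (Atp5g1) to 0.07 (Atp5h). Atp5b, the catalytic beta subunit, had 25747, 24645, 26952 and 37154 in WT and 28637, 35033, 36286, 21531, 32566 and 24432 in KCASP1Tg. The alpha subunit Atp5a1 averaged 21572 ± 7335 (SD, n = 4) in WT and 21496 ± 5642 (SD, n = 6) in KCASP1Tg. The smallest limma adjusted p was 0.973 in F1 and 0.881 in Fo.

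Atp5g1, Atp5g2 and Atp5g3 encode the same mature c subunit, the ring that turns in the membrane, and they differed in how they varied over the mice. Atp5g2 had 5972, 4821, 5908 and 9742 in WT and 6197, 7715, 7316, 5513, 7138 and 5457 in KCASP1Tg. Like most members, it was highest on WT 4, and its range was 2.02-fold. Atp5g3 had 22123, 20912, 20761 and 23642 in WT and 22201, 21680, 23181, 18436, 23899 and 21121 in KCASP1Tg. Its range of 1.30-fold was the narrowest of the 77 genes. Atp5g1 had 2547, 2405, 2184 and 2829 in WT and 2807, 1884, 1669, 2500, 2092 and 2486 in KCASP1Tg. It too was highest on WT 4, but it was lowest on KCASP1Tg 3 and KCASP1Tg 2, where most members were high. It differed by -0.17 ± 0.16 (limma adjusted p = 0.881).

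Atpif1, the inhibitor protein of ATP synthase, is no member because its symbol in this annotation does not start with Atp5. It had 2368, 3204, 3358 and 1064 in WT and 2437, 1711, 1125, 2582, 2013 and 3312 in KCASP1Tg. It was lowest on WT 4 and KCASP1Tg 3 and highest on WT 3, KCASP1Tg 6 and WT 2. KCASP1Tg 4, the lowest array of most members, was only the fourth highest for Atpif1. The genotypes overlapped and differed by -0.13 ± 0.37 (limma adjusted p = 0.981).

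**Figure D3:**
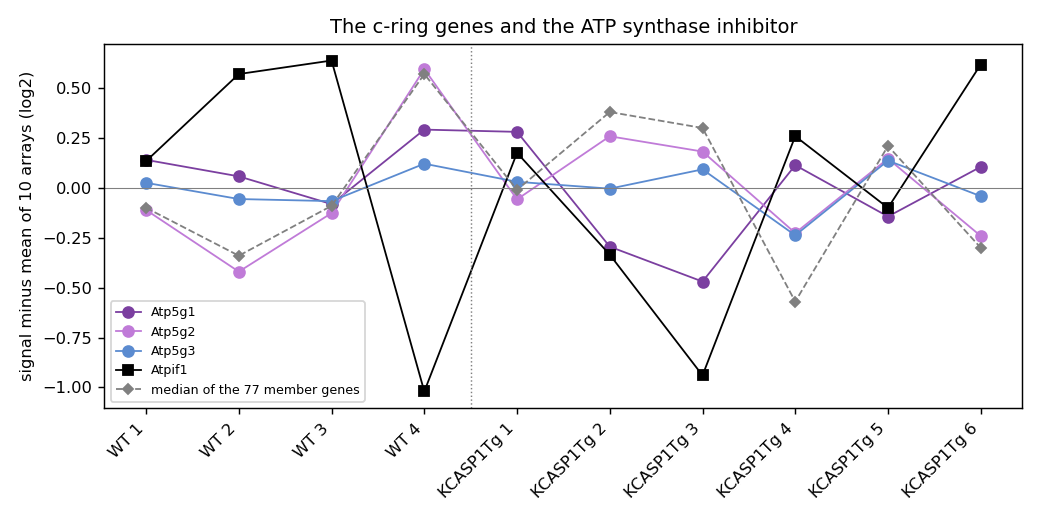
Signal of the c subunit genes Atp5g1, Atp5g2 and Atp5g3 and of the inhibitor Atpif1 on each array, as log2 minus the mean of the 10 arrays, with the median of the 77 member genes. Atp5g2 runs with the median, Atp5g3 stays nearly level and Atpif1 is lowest on WT 4, where the median is highest.

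What the members shared was their order over the mice. After subtracting each gene's mean over the 10 arrays, the median of the 77 genes on the log2 scale was 0.57 on WT 4, 0.38 on KCASP1Tg 2, 0.30 on KCASP1Tg 3 and 0.21 on KCASP1Tg 5. It was -0.01 on KCASP1Tg 1, -0.09 on WT 3 and -0.10 on WT 1, and it was lowest at -0.30 on KCASP1Tg 6, -0.34 on WT 2 and -0.57 on KCASP1Tg 4. Both ends of the order thus held a mouse of either genotype. The span from the lowest to the highest array, 1.14, was large beside the genotype difference of -0.01. WT 4 was the highest array for 69 of the 77 genes (89.6%) and KCASP1Tg 4 the lowest for 64 (83.1%), and both held for 61 (79.2%). Among all tested probe sets the shares were 16.7%, 20.0% and 7.67%. Among those with a mean signal of 8000 to 20000, where many members lie, they were 37.3%, 44.4% and 30.7%.

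The order was nearly the same in each complex, with only neighbouring arrays changing places. In complex III the medians ran from 0.74 on WT 4 to -0.81 on KCASP1Tg 4, in complex II from 0.69 to -0.70, and in the complex I core from 0.74 to -0.70. In complex IV they ran from 0.41 to -0.50, in F1 from 0.53 to -0.45 and in Fo from 0.45 to -0.39, on the same 2 arrays. Both ends were these 2 arrays for 4 of 4 genes of complex II, 8 of 8 of complex III, 5 of 6 core and 24 of 27 accessory genes of complex I, 8 of 13 of complex IV, 4 of 5 of F1 and 8 of 12 of Fo. The 5 exceptions of complex IV were Cox5a, whose lowest array was WT 2, and the dim or tissue-specific genes Cox6a2, Cox6b2, Cox7c and Cox8c. Those of Fo were the 3 c subunit genes and Atp5md.

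**Figure D4:**
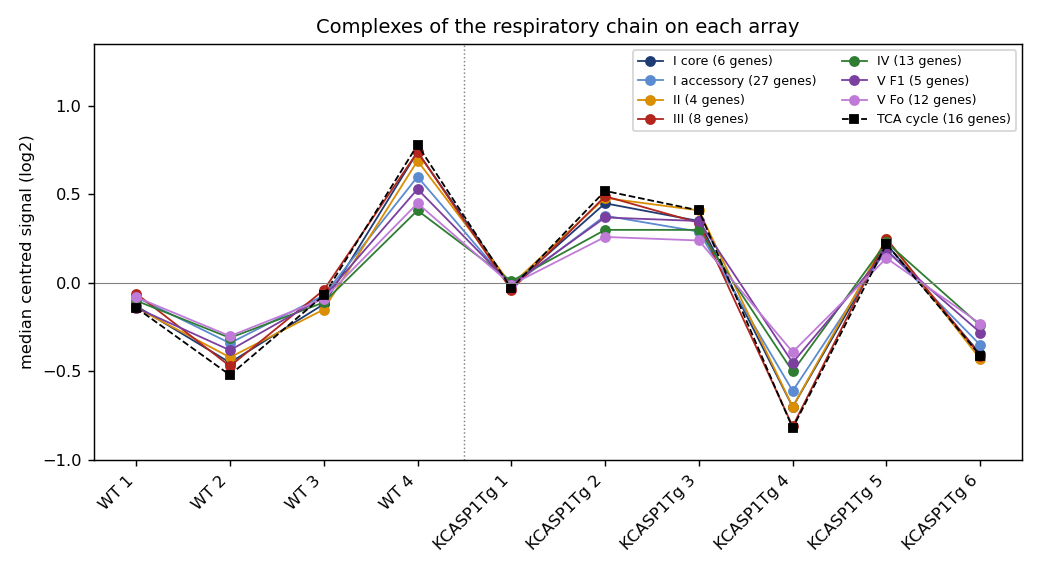
Median centred signal (log2) of the tested genes of each complex on each of the 10 arrays, with the citric acid cycle list as black squares. All lines peak on WT 4 and reach their lowest point on KCASP1Tg 4, with complex III and the citric acid cycle spanning the most and Fo the least.

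The order was also read without its ends. On the 8 arrays other than WT 4 and KCASP1Tg 4, a choice made after the values were seen, the highest was KCASP1Tg 2 or KCASP1Tg 3 for 71 of the 77 genes (92.2%) and the lowest WT 2 or KCASP1Tg 6 for 70 (90.9%). For all tested probe sets these shares were 34.1% and 25.4%. The arrays counted were those next highest and next lowest in the medians of these same genes. High shares follow in part from that choice, so they are a description and no separate support for the order. Bright and dim member probe sets were then read apart. WT 4 was highest and KCASP1Tg 4 lowest for 107 of the 126 member probe sets with a mean signal of at least 1000 (84.9%), and for 3 of the 26 dimmer ones (11.5%). Among all tested probe sets the same shares were 16.0% and 4.59%.

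The complexes differed in how widely their genes varied over the mice, each gene taken with its own highest and lowest array. The median range over the mice, highest over lowest array, was 2.99-fold in complex III, 2.66-fold in the complex I core, 2.63-fold in complex II and 2.29-fold in the accessory subunits of complex I. It was 2.01-fold in complex IV, 1.98-fold in Fo and 1.97-fold in F1, beside 1.92-fold for all tested probe sets. On the 8 arrays without WT 4 and KCASP1Tg 4 the ranges were narrower. They were 1.99-fold in complex III, 1.92-fold in the core, 1.90-fold in complex II, 1.71-fold in F1 and 1.69-fold in the accessory subunits. Complex IV (1.56-fold) and Fo (1.50-fold) then lay below the 1.66-fold of all tested probe sets. The comparison over all 10 arrays was repeated for genes within 1 band of mean signal, 8000 to 20000, in which complex IV had only 2 genes and is not given. There the range was 3.03-fold in complex III (7 genes), 2.62-fold in complex II (3), 2.59-fold in the core (5) and 2.44-fold in the accessory subunits of complex I (19), against 1.97-fold in F1 (3) and 1.89-fold in Fo (6), and 1.78-fold for all 574 probe sets in this band. The range within complex III was itself uneven, from 1.85-fold for Uqcrb, its brightest gene, to 3.15-fold for Uqcr10. The dimmer Uqcrb probe set, however, ranged over 2.75-fold. The narrowest subunit genes were Atp5g3 (1.30-fold), Atp5j (1.34-fold), Cox7c (1.50-fold), Cox8c (1.57-fold) and Cox6a1 (1.59-fold). Of the genes with upstream stretches shown, Uqcr11 ranged over 2.61-fold, Sdhb over 2.59-fold, Atp5g2 over 2.02-fold and Cox6a1 over 1.59-fold. These ranges are a description, as the genes of a complex were read on the same 10 arrays.

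**Figure D5:**
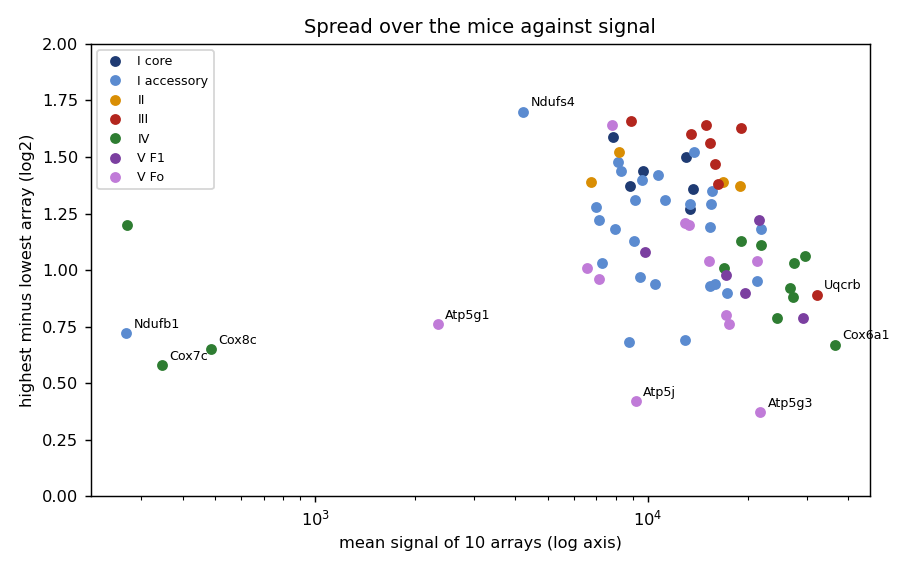
Difference between the highest and the lowest array (log2) against the mean signal of the 10 arrays (log axis) for the tested genes of complexes I to V without Cox6a2. Genes of complex III and the complex I core lie higher than most genes of ATP synthase at similar signals, with Uqcrb and Atp5md as exceptions.

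Other mitochondrial genes were read from lists, none of which had a gene called by limma. The citric acid cycle and pyruvate dehydrogenase list had the order of the members. All 16 of its tested genes were highest on WT 4 and lowest on KCASP1Tg 4, its medians ran from 0.78 to -0.82, and its median genotype difference was -0.02. Of the electron carriers and coenzyme Q genes, 10 of 14 had these 2 arrays at the ends. Cytochrome c, Cycs, had 17260, 13466, 20005 and 27422 in WT and 19086, 24373, 25979, 13070, 22531 and 16304 in KCASP1Tg. Coq8a, which supports coenzyme Q synthesis, varied over 6.07-fold and differed by 0.49 ± 0.55.

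Other lists also held genes with these arrays at the ends. They were 24 of 42 assembly factors, 10 of 19 import and inner membrane proteins and 3 of 16 regulators of mitochondrial genes, beside 7.67% of all tested probe sets. The smallest limma p-values of these lists were those of the assembly factor Uqcc2 (-0.25 ± 0.13, adjusted p = 0.687), the inner membrane fusion protein Opa1 (-0.20 ± 0.11, adjusted p = 0.729) and the nuclear receptor Esrrg (-0.54 ± 0.29, adjusted p = 0.696). Yy1, one of the factors whose letters were searched, was highest on KCASP1Tg 4 (2265), the array where the members were lowest, and differed by 0.21 ± 0.13 (adjusted p = 0.765). Of the 16 regulators, however, 8 were highest on WT 4 and 4 were lowest on KCASP1Tg 4. The medians of that list were 0.33 and -0.16 on these 2 arrays.

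Brown adipocyte markers moved with the members. Ucp1 had 19590, 13546, 22356 and 38829 in WT and 12086, 27885, 32055, 4280, 24395 and 10322 in KCASP1Tg. Its highest array was WT 4 and its lowest KCASP1Tg 4, and it differed by -0.54 ± 0.55 between genotypes (limma adjusted p = 0.897). The isoforms Cox8b and Cox7a1, left out of the members because they mark brown fat and muscle, had the same ends, with ranges of 3.50-fold and 8.68-fold. Cox7a1 had 4194, 2875, 5867 and 15500 in WT and 5671, 11486, 8376, 1785, 7101 and 3138 in KCASP1Tg. Of 11 tested brown adipocyte markers, 7 were highest on WT 4 and lowest on KCASP1Tg 4, and their medians ran from 1.15 to -1.37 on these 2 arrays. The smallest p of the list was that of Dio2 (-0.98 ± 0.53, adjusted p = 0.706). Of the arrays where members were high, WT 4 and KCASP1Tg 2 had high heart muscle sums (90051 and 25678). KCASP1Tg 3 and KCASP1Tg 5 had low heart and skeletal muscle sums (3334 and 2413, 2270 and 3286). KCASP1Tg 1 had a high heart muscle sum (43777) with a member median of -0.01. WT 1 and KCASP1Tg 4 had high skeletal muscle sums (43716 and 38881) with member medians of -0.10 and -0.57. The part of brown adipocyte, muscle or lymphocyte transcripts in the order of the members was not tested.

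Single mice decided the sign of the small genotype differences. The median of the member genes was 0.18 without WT 4 and 0.10 without KCASP1Tg 4, and it was -0.13 without WT 2. Leaving out the 5 arrays with heart or skeletal muscle transcripts, a choice made after the data were seen, gave a median of 0.29. In that fit 0 of 149 member probe sets had an unadjusted limma p under 0.05, beside 5.29% of all tested probe sets. Few arrays of either genotype were left in it, so the count of 0 carries little weight. With the mean of 9 brown adipocyte markers, without Cox8b and Cox7a1, as a covariate, chosen at the same stage, the median was 0.15. Here 30 of the 152 member probe sets had an unadjusted limma p under 0.05 (19.7%, beside 11.7% of all tested probe sets). Of these, 29 were higher in KCASP1Tg. The members rose and fell together over the same arrays, so these probe sets are not independent observations. The smallest limma adjusted p of a member was then 0.147, for Cox6b2, and 0 members were called.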

How the data were processed

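Abdominal aorta RNA of 4 WT and 6 KCASP1Tg samples was hybridised to 10 arrays, each labelled as 1 mouse. The methods give fewer mice than this for the arrays, which could not be settled, so some samples may share an animal. Per the labels and methods, the authors used MAS5.0 (version 5.0) to derive 1 signal per probe set and scaled each array, and the deposited intensities are linear. Leaving out 2% of probe sets at each end, every array averaged 500.0, so values are relative to the array's total, and 54.9% to 58.3% of probe sets reached 100. Of 45101 probe sets, 64 controls were left out, 34945 had 1 symbol in the platform annotation, 932 several and 9160 none. Probe sets with several symbols were not named, and current and platform symbols gave the same 167 members. Of these, 47 carry names for probe sets that can match several transcripts, and 18 of those stood for their gene, so near-identical copies may share their signal. The mapping left 0 columns unused. The array files carry no coordinates.

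Signals under 1 were set to 1, log2 was taken, and limma (3.58.1, R 4.3.3) was fitted with genotype as the only term to probe sets that reached 100 on 4 or more arrays. Calls were made at an adjusted p under 0.05 (Benjamini-Hochberg, two-sided), beside a two-sided exact Mann-Whitney test. P-values measure the spread between these samples and would be too small if samples shared an animal. The members, gene lists and tests were chosen with earlier results of these data known. Values were given for catalytic subunits, tissue isoforms and partners, the extremes and smallest p of each complex, members whose groups did not overlap, genes with discordant probe sets and the smallest p of other lists. Symbols are those of the annotation (Atp5a1 for the alpha subunit). Promoter windows and gene positions came from RefSeq tables (GRCm38.p6). On simulated arrays of this comparison with 26242 probe sets, 64%, 88%, 96% and 100% of changes of 1, 2, 4 and 5 (log2) were recovered. The simulation drew each probe set independently and made every change upward, whereas the members varied together. Changes under 1 were not simulated, and the tested members differed by less than that, so these shares do not apply to them. Alternatives covered a floor of 16, a pseudocount of 50, quantile normalization, array weights, centring on the median, an intensity trend, another filter (200, or none), the replicate number as a block, arrays left out, and averaging of probe sets. Those without heart or skeletal muscle arrays and with the brown adipocyte covariate were chosen after seeing the data. The reading of ranges and end arrays without WT 4 and KCASP1Tg 4 was chosen then as well, and limma was not rerun on it. A limma fit without WT 4 and KCASP1Tg 3 had been planned. No scan date or batch is given in the sources used here. Figures were drawn with matplotlib 3.10.9 (Python 3.11.15).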

Additional observations from a re-analysis of the deposited data

Results flagged for a closer look

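In 82 groups of 4 or 6 arrays, formed by the genes described, the gap of the highest or lowest array to its neighbour was compared with the range of the group (critical values 0.829 for 4 and 0.625 for 6 arrays). The ratio passed in 2 groups, and chance flags about 1 in 20. Cox6a1 on KCASP1Tg 4 stood apart below the other KCASP1Tg arrays, at 27346 against 35669 for the next, with a ratio of 0.645. Cox7c on KCASP1Tg 6 stood apart below the others, at 289 against 372, with a ratio of 0.665.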

How the results depend on the processing

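Member probe sets called by limma numbered 0 under every alternative run, with a smallest member adjusted p of 0.093 (Cox7c, array weights). The count over all tested probe sets, 18, was 267 with array weights, 0 by the exact Mann-Whitney test, 2 without the arrays with heart muscle transcripts (WT 4, KCASP1Tg 1 and KCASP1Tg 2), 0 without heart or skeletal muscle arrays, and 41 with the brown adipocyte covariate. With single arrays left out it ran from 10 (without KCASP1Tg 1) to 69 (without KCASP1Tg 4), and was 41 without KCASP1Tg 6. The causes were not tested. With the replicate number as a block it was 0. Whether these numbers pair mice is not given in the sources used here. Deviations of same-numbered mice correlated at 0.11, -0.31, -0.43 and -0.33, which cannot settle it. The median of the member genes ran from -0.13 to 0.18 with single arrays left out and was 0.22 with array weights, -0.05 after quantile normalization and -0.02 with the mean over the probe sets of a gene. Of 782 values of 34 named genes, 780 moved by under 1 SD. The other 2 were 0.29 for Cox6a1 and 0.12 for Atp5g3, without heart or skeletal muscle arrays. Leaving out a single array cannot move a difference by 1 SD, and the trend and filter settings leave it unchanged. The count is therefore no check of stability. Signs did change with single arrays left out, as for Ndufs1, which ran from -0.26 to 0.17. Signal near background limits the dim genes, and 10 arrays limit every interval.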
